A study of Mus musculus with 8 samples.

Results

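The flavin-containing monooxygenase (Fmo) genes Fmo1, Fmo2, Fmo4 and Fmo5 were examined in dermal fibroblasts of old and young mice. Every probe set that the platform annotation assigned to exactly 1 of these symbols was taken, which gave 9 of the 45141 probe sets on the array and 4 of 17097 genes. Fmo1 and Fmo4 had 1 probe set each, Fmo2 had 4 and Fmo5 had 3. The family was selected on the old-against-young log2 differences of these same arrays, so its age differences are given as a description, with standard errors but no p-value. The count of its genes past the threshold is given only beside that of all genes, and nothing is read from it. The study measured expression on 1 array per mouse in 4 old mice (18 months) and 4 young mice (2 months), all male C57Bl/6 animals with no engineered allele or treatment named in the labels. The cells were sorted from digested skin without its subdermis as carrying CD34 and Pdgfra while lacking the lineage markers EpCam, CD31, CD24, CD117 and CD45, and their RNA was amplified before labelling.

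Flavin-containing monooxygenases are enzymes of the endoplasmic reticulum membrane that use FAD, NADPH and molecular oxygen to oxygenate soft nucleophiles, mainly nitrogen and sulphur atoms of drugs, dietary amines and sulphides. They stand beside the cytochrome P450s in the first phase of foreign compound metabolism but take their electrons from NADPH without a separate reductase. They are best known from liver, kidney and lung, and in the worm Caenorhabditis elegans the family member fmo-2 is known for its part in lifespan under low oxygen and dietary restriction.

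The values are log2 expression after RMA, the authors' normalization, so a difference of 1 is a doubling. A probe set was called dim when its mean lay below 5.10, the median of all probe sets' means, and the 23 non-specific control probe sets had a median of 3.90 and a highest mean of 6.80. Among the fibroblast markers, Cd34 averaged 11.01 ± 0.04 in old mice and 10.82 ± 0.06 in young mice (SD, n = 4 each), and Col1a1 and Dcn were among the brightest genes. The groups did not overlap for Cd34 (limma adjusted p = 0.129), as in 9.7% of all genes. Pdgfra, a marker of the sort, averaged 4.47 ± 0.28 in old mice and 5.06 ± 0.25 in young mice on its brightest probe set, below the dim threshold in both ages. Its difference was -0.59 ± 0.16 (SE; limma adjusted p = 0.0808), and the groups overlapped. Leukocyte Ptprc and hepatocyte Alb lay at 3.51 and 4.72 in old mice and at 3.43 and 4.68 in young mice. Of the measured markers, 4 of 6 for leukocytes and 2 of 4 for hepatocytes were dim. The others were leukocyte Csf1r (8.82 in old mice, 8.85 in young mice) and Cd68 (6.82 and 6.69). For hepatocytes they were Apoa1 (6.15 and 6.05) and Ttr (5.645 and 5.59), and no marker of either list passed the threshold. The 6 melanocyte markers had a summed linear level of 552.0 to 1082 in old mice and 230.1 to 304.8 in young mice. Mlana alone among these 6 passed the threshold (9.10 in old mice, 6.225 in young mice), and Dct, Tyr and Tyrp1 were dim in both ages. Pmel (5.41 and 5.50) and Sox10 (6.27 and 6.28) differed by -0.085 and -0.005, so the higher sum in old mice rests on Mlana. The 7 keratinocyte markers summed to 551.5 to 1524 in old mice and 488.5 to 803.0 in young mice, and none passed. Epcam, which the sort excluded, averaged 5.45 ± 0.19 in old mice and 5.05 ± 0.08 in young mice (SD, n = 4 each). The young mean lay below the dim threshold, and the groups did not overlap (limma adjusted p = 0.0584), as in 9.7% of all genes. The part of these cells in the Fmo results was not tested.

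Fmo1 was the member with a lower level in old fibroblasts. The enzyme has a broad range of nitrogen- and sulphur-containing substrates and also oxidises hypotaurine to taurine. Its probe set, 1417429_PM_at, read 6.18, 5.85, 6.78 and 6.45 in old replicates 1 to 4, against 8.00, 8.16, 7.45 and 7.90 in young replicates 1 to 4. The groups did not overlap, and 0.67 log2 units lay between the highest old mouse and the lowest young mouse. Fmo1 averaged 6.32 ± 0.40 in old mice and 7.88 ± 0.30 in young mice (SD, n = 4 each), a log2 difference of -1.56 ± 0.21 (SE), or 2.95-fold lower. By size this was decrease number 31 among 17097 genes, where the median change over all genes was 0.01 and the median absolute change 0.08. In old mice the mean stood at percentile 69.6 of all probe sets, and in young mice at percentile 85.3. All 4 young mice read above all 23 non-specific controls on their arrays, while the old mice read above at least 19 of 23. In such sorted bulk samples, fewer cells that express a gene and less RNA per cell cannot be told apart.

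Leaving out each mouse in turn moved the Fmo1 difference between -1.72 and -1.41. Array weights, arrays centred on their median and renewed quantile normalization gave -1.57, -1.57 and -1.55. The other settings could not move it by construction: changed priors, the dim filter, a block balanced over the ages, and averaging of a single probe set. Fmo1 has a single probe set on the array, so no other sequence of the gene checks this value.

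Fmo2, known as the main form in the lung of many mammals, was read by 4 probe sets, on each of which the ages overlapped. The brightest, 1453435_PM_a_at, read 5.15, 5.08, 5.41 and 5.76 in old mice, against 5.95, 5.42, 4.92 and 5.07 in young mice. The groups overlapped over most of their range, with the highest and the lowest reading both in young mice. Fmo2 averaged 5.35 ± 0.31 in old mice and 5.34 ± 0.46 in young mice (SD, n = 4 each), a difference of 0.01 ± 0.23 (SE). The mean of this probe set over all mice exceeded 18 of the 23 non-specific controls, so a change of the transcript could be missed. Probe set 1422904_PM_at read 4.49, 4.16, 4.30 and 4.43 in old mice, against 4.97, 4.37, 4.10 and 4.42 in young mice, a difference of -0.12 ± 0.17 (SE). Young replicate 1 was the highest mouse on all 4 Fmo2 probe sets. The remaining pair, 1422905_PM_s_at and 1454005_PM_at, had means of 4.02 and 3.54 over all mice and differences of 0.0025 and -0.01.

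Fmo4, a member whose substrates are little studied, read near the control level in every mouse. Its probe set 1425799_PM_at read 4.16, 4.20, 3.99 and 4.04 in old mice, against 4.05, 3.91, 4.06 and 4.06 in young mice. The groups overlapped, and the mean over all mice exceeded 12 of the 23 non-specific controls. Fmo4 averaged 4.10 ± 0.10 in old mice and 4.02 ± 0.07 in young mice (SD, n = 4 each), with a difference of 0.08 ± 0.07 (SE). At such a signal a change of the transcript could be missed.

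Fmo5 differs from the other members in its chemistry, since it prefers Baeyer-Villiger oxidation of ketones over nitrogen and sulphur oxygenation. Its brightest probe set, 1450332_PM_s_at, read 5.25, 5.38, 5.27 and 5.48 in old mice, against 4.97, 5.42, 5.02 and 5.34 in young mice. All old mice read inside or just above the range of the young mice, so the groups overlapped. Fmo5 averaged 5.34 ± 0.11 in old mice and 5.19 ± 0.23 in young mice (SD, n = 4 each), a difference of 0.16 ± 0.11 (SE). The mean of this probe set over all mice exceeded 18 of the 23 non-specific controls, so here too a change could be missed. Its other probe sets, 1421709_PM_a_at and 1440899_PM_at, had means of 3.62 and 3.77 over all mice, below the median of the non-specific controls, and differences of 0.10 ± 0.06 and -0.01 ± 0.08 (SE).

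**Figure D1:**
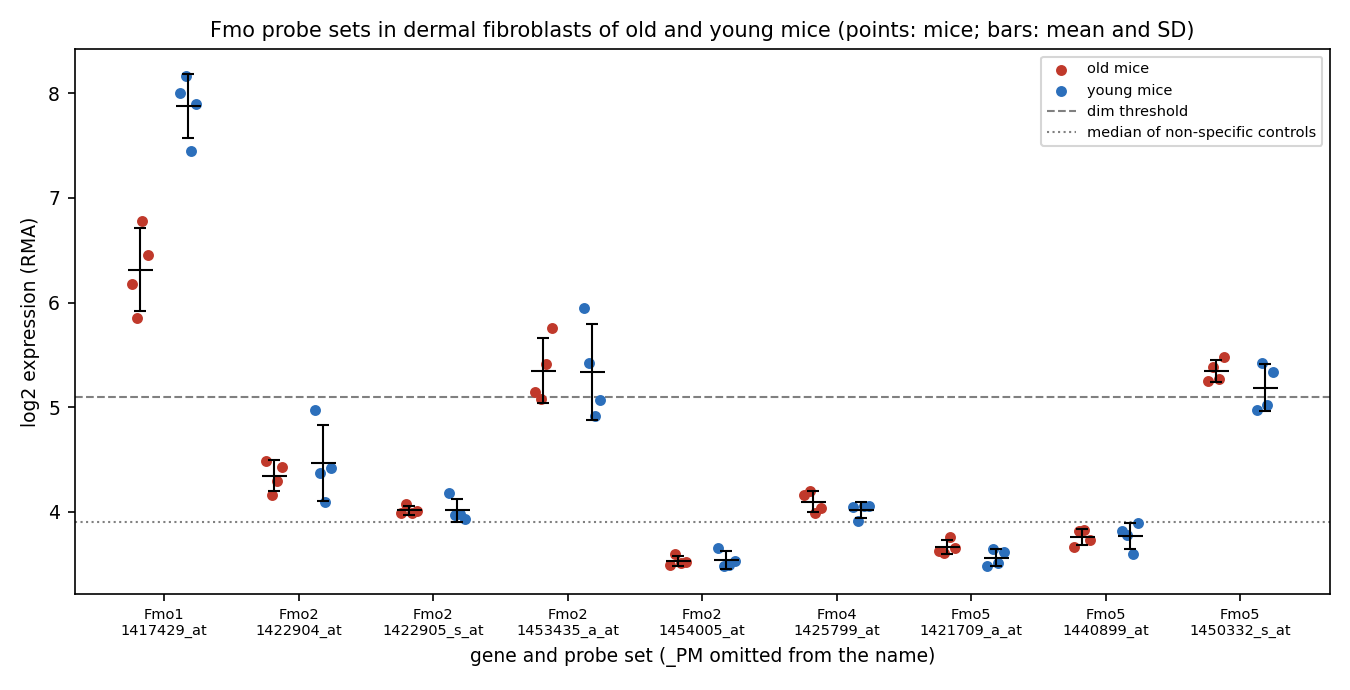
Log2 expression (y axis) of the 9 Fmo probe sets (x axis) in 4 old mice (red, left) and 4 young mice (blue, right), with the mean and SD in black and lines at the dim threshold (5.10) and the control median (3.90). The groups are apart for Fmo1 (6.32 in old mice, 7.88 in young mice) and overlap on the other 8 probe sets, of which 6 lie below the dim threshold.

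Groups that did not overlap were thus found for 1 of the 4 genes, beside 9.7% of all 17097 genes (5.21% lower in old mice). By limma's adjusted p under 0.05, 1 of the 4 was past the threshold, beside 3.97% of all genes (2.15% lower). Since the choice of the family used this contrast, nothing is read from these counts. The median difference of the 4 genes was 0.04. Across the 8 probe sets of Fmo2, Fmo4 and Fmo5, differences lay between -0.12 and 0.16, and none had groups apart. Probe sets bind with different strength, so the levels of different Fmo genes were not ranked against each other.

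The sample titles fall into 2 runs of numbers, each holding 2 old mice (replicates 1 and 2, or 3 and 4) and 2 young mice (likewise). Replicate numbers follow sample order, only name a mouse and pair none. Whether a run was a collection day is not stated. The run is balanced over the ages, so it is a contrast that the choice of the members did not use. In run 1, Fmo1 averaged 6.02 in old mice and 8.08 in young mice, a difference of -2.06. In run 2 it averaged 6.62 in old mice and 7.68 in young mice, a difference of -1.06. As all old mice read below all young mice, the sign in each run was fixed beforehand, and the values describe only the size of the gap. On the brightest probe set of Fmo2, the old mice averaged 5.12 and the young mice 5.68 in run 1, against 5.58 in old mice and 4.995 in young mice in run 2. The difference on this probe set was -0.57 in run 1 and 0.59 in run 2, of opposite sign, with no overlap between ages within either run. The other Fmo2 probe sets differed by -0.345, -0.04 and -0.025 in run 1 and by 0.105, 0.045 and 0.005 in run 2. On each of these the ages overlapped in run 1.

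The difference between runs, pooled over ages, was 0.10 ± 0.21 for Fmo1, -0.11 ± 0.23 for Fmo2, -0.04 ± 0.07 for Fmo4 and 0.02 ± 0.12 for Fmo5 (SE, 4 mice against 4). None passed limma's threshold (lowest adjusted p = 0.787), beside 0.0468% of all genes. The interaction, the difference of run 2 minus that of run 1, was 1.00 ± 0.26 for Fmo1 (limma adjusted p = 0.537) and 1.16 ± 0.26 for Fmo2 (limma adjusted p = 0.519). It was -0.24 ± 0.13 for Fmo4 and 0.08 ± 0.24 for Fmo5 (limma adjusted p = 0.737 and 0.967). No interaction passed after adjustment, beside 0% of all genes. An unadjusted p under 0.05 was found for 1253 of 17097 genes, Fmo1 and Fmo2 among them (limma unadjusted p = 0.00505 and 0.00207). With a pair of mice per age and run, the age difference of Fmo1 and Fmo2 was therefore not shown to differ between runs.

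**Figure D2:**
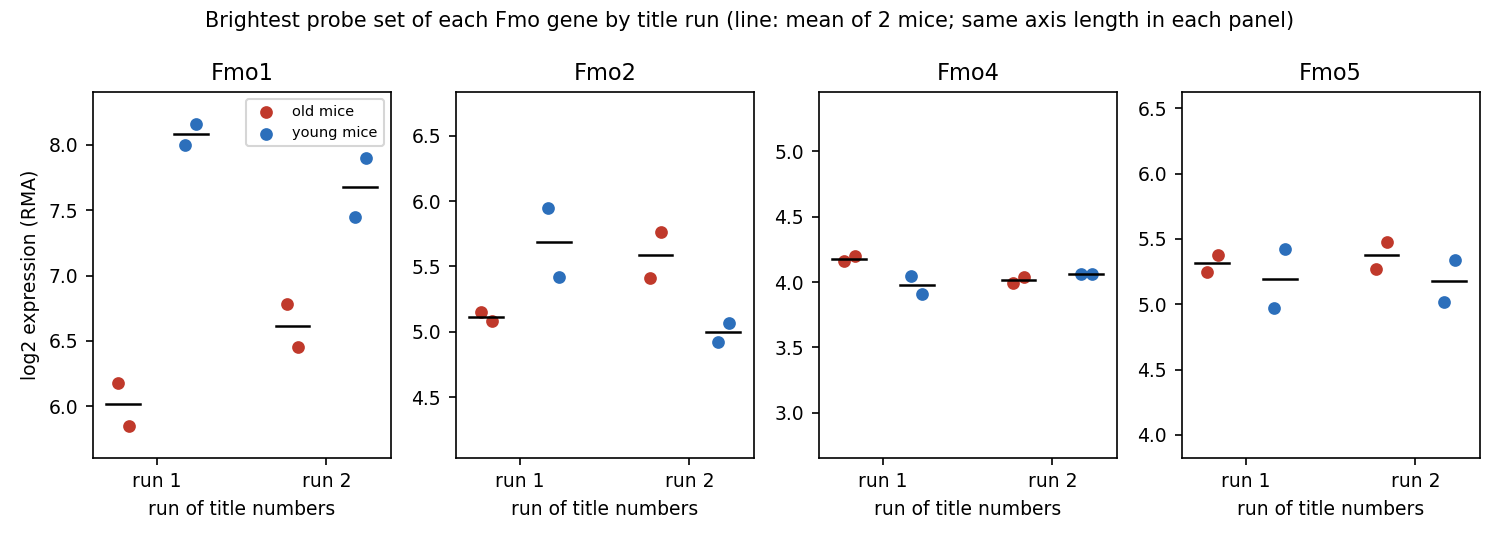
Log2 expression (y axis) of the brightest probe set of each Fmo gene by run of title numbers (x axis), with old mice in red, young mice in blue and a line at the mean of each pair. Fmo1 is lower in old mice in both runs (-2.06 and -1.06), and Fmo2 has its old mice below the young in run 1 (-0.57) and above them in run 2 (0.59).

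Deviations of single mice from the mean of their age describe how the members varied together once the age means were removed. They still hold the run differences within each age given above, so the correlations are not separate from those. Over the 8 mice, these deviations had Pearson r = 0.61 between Fmo1 and Fmo2, -0.85 between Fmo1 and Fmo4 and 0.25 between Fmo1 and Fmo5. They had r = -0.43 between Fmo2 and Fmo4, -0.06 between Fmo2 and Fmo5 and -0.38 between Fmo4 and Fmo5. All points share the same 8 arrays and their runs, and the deviations of Fmo4 span a narrow range close to the controls. Among 10559 genes at or above the dim threshold, the deviations most like those of Fmo1 were those of Paqr4 (r = 0.996) and Nme6 (r = 0.987), which changed with age by 0.01 ± 0.07 and 0.05 ± 0.07 (SE). Those most like Fmo2 were Lcat (r = 0.97) and P4htm (r = 0.96). Cmtm4 and Itgav (r = 0.97 each) were most like Fmo4, and Paf1 (r = 0.97) and Baiap2l1 (r = 0.95) most like Fmo5. None of these 8 genes passed limma's threshold between old and young mice. These are the highest of many values over few mice and are given as a description only.

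In the RefSeq gene order of assembly GRCm38.p6, Fmo4, Fmo1 and Fmo2 follow each other on chromosome 1, while Fmo5 stands alone on chromosome 3 between Chd1l and Prkab2. Of the 10 measured genes on each side of the chromosome 1 group, limma called 0 of 20 (2 had an unadjusted p under 0.05), beside 3.97% of all genes, and their median difference was 0.0012. The next measured genes, Prrc2c before Fmo4 and Mroh9 after Fmo2, differed by 0.01 ± 0.07 and 0.06 ± 0.06 (SE). Prrx1, a mesenchymal homeobox factor close by, averaged 11.68 ± 0.08 in old mice and 11.50 ± 0.12 in young mice (SD, n = 4 each; limma adjusted p = 0.353). This brightest probe set of Prrx1 differed by 0.17, and its other probe sets by 0.21 to 0.46. Around Fmo5, 1 of 20 rose: Prkab2, the beta 2 subunit of the kinase AMPK, by 0.44 ± 0.06 (SE; limma adjusted p = 0.00467), with its other probe sets at 0.36 and 0.46.

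**Figure D3:**
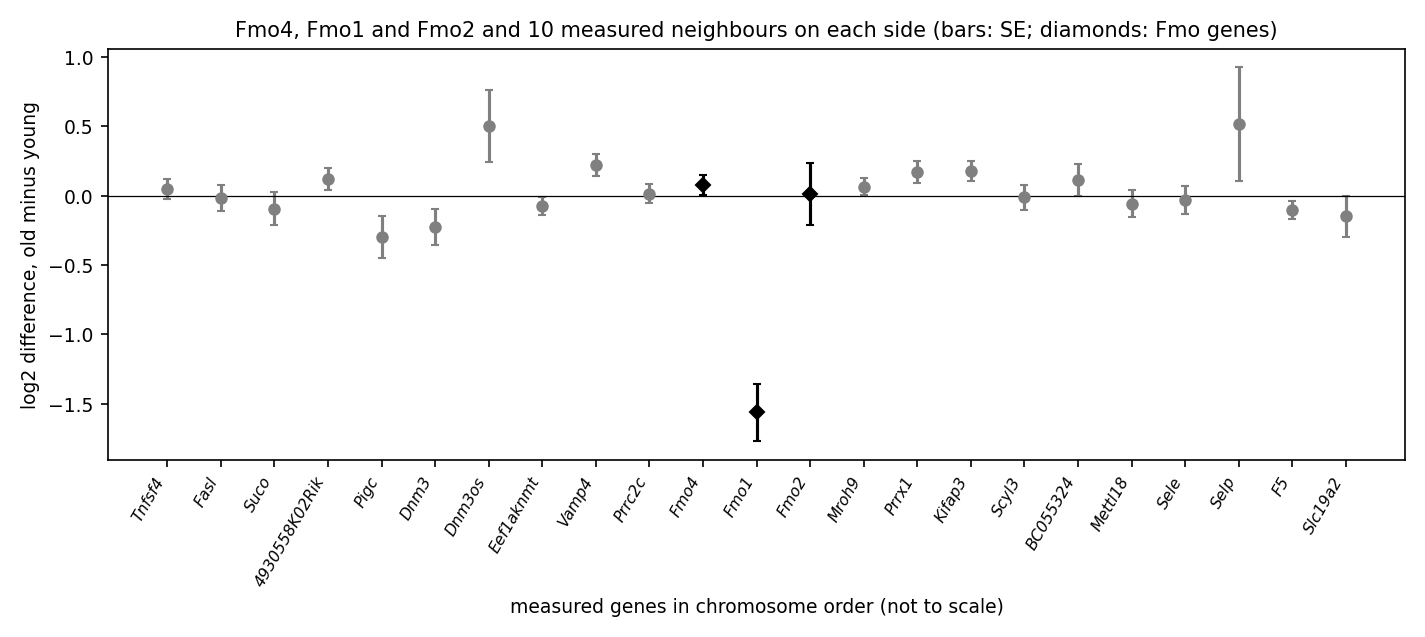
Log2 difference of old minus young (y axis, bars are SE) for Fmo4, Fmo1 and Fmo2 (black diamonds) and the 10 measured genes on each side (grey) in chromosome order (x axis). Fmo1 lies at -1.56, while the 20 neighbours lie between -0.30 and 0.52 and Fmo4 and Fmo2 at 0.08 and 0.01.

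Related enzymes were read from 6 lists with 181 measured genes, of which 13 rose and 8 fell in old mice, beside 1.82% and 2.15% of all genes. Among 16 genes of FAD synthesis and NADPH supply, 1 rose, none fell and the median was 0.04: H6pd, which makes NADPH inside the endoplasmic reticulum, rose by 0.42 ± 0.08 (SE; limma adjusted p = 0.0249). The H6pd call depended on young replicates 1, 2 and 3 and old replicates 1 and 2, since leaving out any of these ended it (limma adjusted p up to 0.0769). The riboflavin kinase gene Rfk, a step on the way to FAD, differed by 0.09 ± 0.09 and the malic enzyme gene Me1 by -0.77 ± 0.21, and neither passed. Of 15 genes of taurine and cysteamine metabolism, which includes the Fmo1 substrate hypotaurine, 0 passed by limma (1 at an unadjusted p under 0.05, median 0.04). Cdo1 and Csad, which make hypotaurine from cysteine, differed by 0.23 ± 0.11 and -0.24 ± 0.11 (SE). Gclc, the catalytic subunit of glutathione synthesis, differed by 0.65 ± 0.17 (limma adjusted p = 0.0746, and 1 gene of the list passed without young replicate 3).

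Among 36 measured cytochrome P450s and their electron donors, 3 rose, none fell and the median was 0.06. Cyp2j9 rose by 0.94 ± 0.10, Cyp4b1, a monooxygenase of fatty acids and foreign compounds, by 0.70 ± 0.12, and the oxysterol hydroxylase gene Cyp7b1 by 1.28 ± 0.29 (SE; limma adjusted p = 0.00116, 0.0114 and 0.0412). Cyp7b1 kept its call only without old replicate 1 when mice were left out in turn (limma adjusted p up to 0.117), and its other probe sets differed by 0.07 and 1.48. With the run as a term in the fit, 5 of the 36 passed. Cyp1b1 averaged 9.10 ± 0.34 in old mice and 8.34 ± 0.43 in young mice (SD, n = 4 each) and did not pass (limma adjusted p = 0.117).

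Of 46 other oxidising, reducing and hydrolysing enzymes, 4 rose and 2 fell (median 0.04). The carboxylesterase gene Ces1d averaged 8.22 ± 0.27 in old mice and 5.90 ± 0.61 in young mice (SD, n = 4 each; limma adjusted p = 0.00179). Aldh1a7 averaged 4.17 ± 0.10 in old mice, below the dim threshold, and 6.29 ± 0.95 in young mice (SD, n = 4 each; limma adjusted p = 0.0154). Akr1b10 fell by 0.53 ± 0.08 (SE) and Dpyd, of pyrimidine breakdown, rose by 0.78 ± 0.14. Dpyd lost its call without young replicates 2 or 3 or old replicate 4 (limma adjusted p up to 0.0553), and its other probe sets differed by -0.03 to 0.70 (0.48 with the mean of probe sets). Aox3 (0.37) and the sulphide quinone oxidoreductase gene Sqor (0.68), named after their values were seen, also rose. Aox3 was dim in old and young mice, and the other probe set of Sqor differed by 0.01 (0.34 with the mean of probe sets). Aox3 passed only when young replicate 1 was the mouse left out, and Sqor when this was young replicate 1 or 2 or old replicate 1 (limma adjusted p otherwise up to 0.122 and 0.0807). Of the 46, 3 passed without young replicate 3 or old replicate 4.

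Of 37 conjugating enzymes, 4 rose and 4 fell (median 0.01). The glutathione transferase genes Gstt1 and Gstm1 rose by 0.87 ± 0.11 and 0.58 ± 0.10 and the sulphotransferase gene Sult1a1 by 0.70 ± 0.10, while Mgst3, a membrane-bound glutathione transferase, fell by 0.64 ± 0.09 (SE; limma adjusted p from 0.00311 to 0.0104). Near-identical family members may add to the signal of Gstm1, whose other probe sets differed by 0.05 to 0.61. Ugdh (0.63), Nnmt (-0.68), Papss1 (-0.60) and Tpmt (-0.37), named after their values were seen, made up the remainder. Of the 8 fits that left out a mouse, Ugdh and Tpmt did not pass in 5 each, Nnmt in 3 and Papss1 in 7. The limma adjusted p reached 0.106 for Ugdh, 0.0737 for Tpmt, 0.0546 for Nnmt and 0.139 for Papss1. Papss1 kept its call only without old replicate 4, and also lost it with a robust prior, array weights or arrays centred on their median. The other probe sets of Tpmt differed by -0.24 to -0.10, and with the mean of probe sets it did not pass (-0.22, limma adjusted p = 0.145). Without young replicate 2 or old replicate 2, 4 of the 37 passed, and without young replicate 1, 5 passed.

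Of 31 measured transcription factors and receptors linked to such enzymes, 1 rose and 2 fell (median 0.03). The growth hormone receptor gene Ghr rose by 0.67 ± 0.09 (SE; limma adjusted p = 0.00347), with other probe sets at 0.43 and 0.50. Ahrr, the repressor of the aryl hydrocarbon receptor, fell by 0.95 ± 0.21 and kept its call only without young replicate 1 when mice were left out in turn (limma adjusted p = 0.0368, up to 0.0846). Foxo3 fell by 0.34 ± 0.08 (limma adjusted p = 0.0451) and lost its call without each of the 8 mice, while its other probe sets differed by -0.18 and -0.01 (with the mean of probe sets -0.18, limma adjusted p = 0.311). The receptor gene Ahr itself differed by -0.16 ± 0.11 and Nfe2l2, the factor Nrf2, by 0.33 ± 0.12, and neither passed. The lists were chosen with earlier results of these arrays known, and nothing particular to them is read from the counts.

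**Figure D4:**
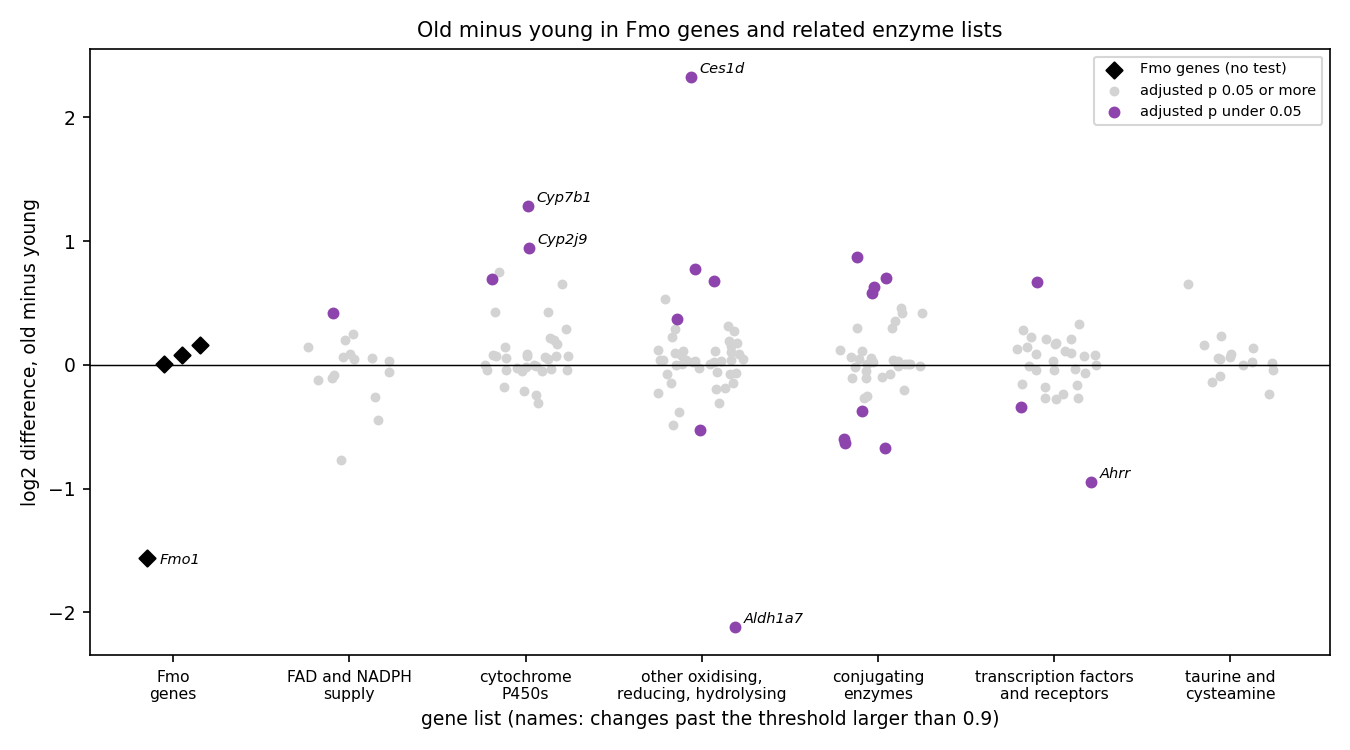
Log2 difference of old minus young (y axis) for the 4 Fmo genes (black diamonds, no test shown) and for the genes of 6 related lists (x axis), purple where limma's adjusted p was under 0.05 and grey otherwise. Fmo1 lies at -1.56 with its 3 relatives near 0, and Ces1d (2.33) and Aldh1a7 (-2.12) are the outermost genes of the lists.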

How the data were processed

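Expression was measured on 8 arrays, 1 per mouse. The deposited values are log2 expression per probe set, made by the authors with affy and its RMA method per the submitters' processing notes. Versions, parameters, array type and filters were not given in the sources used here. Names came from a platform annotation table, brought up to date by gene identifier (28689 of 28898 single-gene probe sets matched, 0 symbols changed). Probe sets with several symbols (551) were not named. The probe set with the highest mean was kept for each of 17097 genes. No arrays were identical (0 duplicated). Coordinates are left out because the values carry no genome build.

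Old was compared with young in limma 3.58.1 (R 4.3.3; lmFit, eBayes, 2-sided). A call needed p under 0.05 after the Benjamini-Hochberg adjustment across the whole gene table. The SEs of probe sets other than the brightest came from a fit over all 45141 probe sets. The run contrast and interaction used age and title run as terms. The fits were tested on simulated arrays. The number of arrays limits the precision.

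The members and lists were chosen with earlier results of these data known. The naming rule took every member probe set and, per list, up to 4 genes past the threshold with the smallest adjusted p. It also took each neighbour past the threshold and, per member, the 2 genes with the most similar deviations. Outside this rule, Prrc2c, Mroh9 and Prrx1 were named, and list genes that did not pass or were named after their values were seen. Alternatives changed the eBayes prior, array weights, the dim filter, the handling of several probe sets, array scaling, the run as a block, and left out each mouse.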

Additional observations from a re-analysis of the deposited data

Results flagged for a closer look

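In Fmo4, young replicate 2 read 3.91, apart from the other young mice, the nearest of which read 4.05. The gap was 0.933 of the range of the young mice, above Dixon's critical value for 4 samples. Among the 18 groups checked in this way 1 was found, and chance gives about 1 in 20. On its brightest probe set, Fmo2 had its old mice below its young mice in run 1 (-0.57) and above them in run 2 (0.59), and the interaction did not pass (limma adjusted p = 0.519). On the other Fmo2 probe sets the ages overlapped in run 1. Fmo4 had its old mice above its young mice in run 1 (0.20) and below them in run 2 (-0.045), at levels near the controls (limma adjusted p = 0.737).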

How the results depend on the processing

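The old minus young differences of the 4 Fmo genes moved by less than the spread between mice in all 63 values from the 16 alternatives (Fmo4 has none with dim genes left out). With 4 mice per age, leaving out 1 mouse cannot move a difference by more than this spread. The changed priors, the dim filter and the balanced title number block cannot move it at all. For these fits the outcome was fixed beforehand, and nothing is read from it. The call count over all genes, 679, ranged from 427 to 606 when 1 mouse was left out and from 590 to 952 otherwise. In lists, FAD and NADPH genes past the threshold numbered 0 with a prior by mean level, 2 with array weights, the mean of probe sets or the title number block, and 0 to 2 without 1 mouse. P450s numbered 6 with array weights and 5 with the mean of probe sets or the block, and taurine genes 1 with dim genes left out and 0 to 1 without 1 mouse. Regulators numbered 1 with arrays centred on their median and 1 to 2 without 1 mouse, other oxidising, reducing and hydrolysing enzymes 3 to 6, and conjugating enzymes 4 to 7. The run difference had the opposite sign with array weights for Fmo2 (0.055) and Fmo5 (-0.031). Without 1 mouse it ranged from -0.069 to 0.288 for Fmo1, from -0.30 to 0.11 for Fmo2 and from -0.06 to 0.12 for Fmo5, and the interaction of Fmo5 from -0.15 to 0.30. No run difference or interaction of an Fmo gene passed in any of these fits (limma adjusted p from 0.196). With the mean of probe sets the interaction of Fmo2 was 0.43, against 1.16 for the brightest probe set. The alternatives for the interaction were chosen after seeing the data. Of the 22 list and neighbour genes past the threshold, 11 kept their call in every alternative and none changed sign. The causes of these moves were not tested. The replicate numbers follow sample order and pair no mice, so the title number block, with 919 genes past the threshold, was the only blocked fit. Most Fmo probe sets (6 of 9) read below the dim threshold, which limits what change they can show.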
